A study of Mus musculus with 44 samples.

Results

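Hepatocytes make most of the proteins that circulate in blood plasma, and their transcripts for these proteins are among the most abundant messages in any tissue. A skeletal muscle fibre is not known to make albumin, so the level of such transcripts in a muscle library is read against their level in liver, to judge whether the library holds traces of liver RNA. Where such reads came from was not tested. The transcripts described here are 9 of the 38202 genes in the count table, and they were chosen by their high counts in liver and the reads counted for them in muscle: Alb (ENSMUSG00000029368), Ttr (ENSMUSG00000061808), Ahsg (ENSMUSG00000022868), Gc (ENSMUSG00000035540), Hpx (ENSMUSG00000030895), Hp (ENSMUSG00000031722), Serpina1b (ENSMUSG00000071178), Serpina3k (ENSMUSG00000058207) and Pigr (ENSMUSG00000026417). For each of them, the reads in a muscle library were divided by the total count of that library and then by the median level over the 11 WT livers. This share is given in ppm (reads per 1000000 expected at the liver level), and it is described without a test. The counts behind it also entered the fits across all genes and the relations between libraries given below, and as the set was chosen with these counts known, the p-values there are no independent support for the choice.

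The study compared mice with a constitutive deletion of Slc16a13, a monocarboxylate transporter of the plasma membrane, with wild-type (WT) littermates. The deletion was made with CRISPR/Cas9 in C57BL/6N mice, removes the proximal promoter with the first exons, and is constitutive, so it is not limited to a cell type by design. All animals, WT included, were males on high-fat diet (HFD) for 15 weeks, and they were killed at 20 weeks of age after an overnight fast. Poly(A) RNA was sequenced from the liver and from the skeletal muscle of the same 11 WT and 11 knockout (KO) mice, which gives 44 libraries in 4 groups of 11, with total counts between 20150712 and 35218243.

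Slc16a13 itself was counted at 99 to 302 reads in the WT livers and at 0 to 8 reads in the KO livers (log2 fold change -5.45, adjusted p = 2.8e-11, edgeR quasi-likelihood test). In muscle it went against the label, with 4 to 22 reads in the WT libraries and 11 to 40 reads in those labelled KO, and therefore the latter are called muscle libraries labelled KO throughout. The fold change there was 0.63 on the log2 scale (SE 0.21, adjusted p = 0.48). The paper reports efficient deletion in multiple tissues, by qRT-PCR across the deleted exons. The counts used here are per gene, so the exons that the muscle reads cover are not known. The gene called between the labels in muscle was Slc16a11, a neighbour of Slc16a13 (below). The cause of the Slc16a13 reads in muscle labelled KO was not tested. The share of albumin message described below would carry between 0.000453 and 0.0143 reads of liver Slc16a13 into a muscle library. The labelled tissue was checked with 18 fibre genes. These genes, led by Myh4 (the fast myosin heavy chain IIb) and with Myh2 (IIa) lowest, summed to 234856 to 298320 CPM (counts per 1000000) in WT muscle and to 220988 to 284444 CPM in muscle labelled KO, against 16.8 to 110 CPM in the livers.

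The 9 transcripts encode proteins of different tasks. Alb encodes albumin, the main carrier of fatty acids in plasma. Ttr (transthyretin) carries thyroxine and retinol-binding protein, Ahsg (fetuin-A) binds calcium phosphate, and Gc carries vitamin D. Hpx (hemopexin) and Hp (haptoglobin) clear heme and hemoglobin, and both are acute phase proteins. Serpina1b and Serpina3k are secreted inhibitors of serine proteases, and Pigr is the receptor that moves polymeric immunoglobulin A across epithelia and hepatocytes. Transcription of several such genes in hepatocytes depends on the factors HNF1 and HNF4.

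RefSeq (GRCm38.p6) gave the sequence upstream of the transcription start for 6 of the 9 genes (Alb, Gc, Serpina1b, Hpx, Ahsg and Pigr). In the 150 bases before the start, the letters GTTAAT, the core of an HNF1 site, were searched on both strands and occurred in 3 of the 6, compared with 3.71% of 32851 promoters of the same length. The 3 with a match are shown, with the motif in capitals. The windows lie at chr5:90460720-90460869 (plus strand, motif from base -32) for Alb, at chr5:89457899-89458048 (minus strand, from -52) for Gc and at chr12:103738190-103738339 (minus strand, from -26) for Serpina1b.
Alb: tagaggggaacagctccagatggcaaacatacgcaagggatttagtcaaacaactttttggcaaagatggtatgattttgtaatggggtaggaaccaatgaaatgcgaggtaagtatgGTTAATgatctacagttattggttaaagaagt
Gc: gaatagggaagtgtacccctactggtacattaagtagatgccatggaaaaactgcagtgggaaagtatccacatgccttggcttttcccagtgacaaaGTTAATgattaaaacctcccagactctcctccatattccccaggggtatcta
Serpina1b: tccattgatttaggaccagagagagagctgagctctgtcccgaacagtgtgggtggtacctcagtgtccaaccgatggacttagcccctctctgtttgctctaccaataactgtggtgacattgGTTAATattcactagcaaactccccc
Searched in the same way, the letters CAAAGT, the core of an HNF4 site, occurred in 3 of the 6 as well (Gc, Hpx and Ahsg), compared with 7.04% of all promoters. In Gc, their last 2 letters are the first 2 of GTTAAT. The letters TATAAA occurred in 0 of the 6, compared with 7.57%. A match of letters is a description of the window and no evidence that a factor binds there.

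Traces of a transcript can be read only as far as its reads are its own. Of the 85-base windows of the annotated transcript (GENCODE M21), as long as the reads, none was shared with another gene for Alb, Ttr, Ahsg, Gc, Hpx and Hp. For Serpina1b, 23.1% of the windows were shared with its paralogues Serpina1a, Serpina1c, Serpina1d and Serpina1e or with Gm8893, for Serpina3k 6.34% were shared with Serpina3m, and for Pigr 0.823% were shared. The deposited counts are of unique reads, so the value of Serpina1b rests on the part of its message that differs from the paralogues. Serpina1a, with 1311 coding bases, differs in length and was not aligned, so the stretch below is not shown to differ from it. The stretch is coding bases 1114 to 1173 of 1242, around the loop that a protease cuts. It was chosen as the one with the most differences from Serpina1c, Serpina1d and Serpina1e. These differ from Serpina1b at the bases in capitals (9 in Serpina1c, 10 in Serpina1d and 12 in Serpina1e).
Serpina1b: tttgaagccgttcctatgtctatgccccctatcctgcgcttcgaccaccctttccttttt
Serpina1c: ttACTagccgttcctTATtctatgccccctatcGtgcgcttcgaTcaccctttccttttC
Serpina1d: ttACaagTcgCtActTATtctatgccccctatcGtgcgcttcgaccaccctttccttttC
Serpina1e: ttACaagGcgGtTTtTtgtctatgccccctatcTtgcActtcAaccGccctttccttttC
Over the whole coding sequence, the identity to Serpina1b was 96.6% for Serpina1c, 96.5% for Serpina1d and 96.3% for Serpina1e.

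In liver, which is the scale of all shares below, the 9 transcripts were abundant in all 22 libraries. Together they took 99918 to 126286 CPM in the WT livers, compared with 84741 to 99240 CPM for 31 further secreted hepatocyte proteins in sum. Alb had a median of 66997 CPM (range 55878 to 84086) in the WT livers and 73546 CPM (63023 to 78608) in the KO livers. Per kilobase of transcript, in the deposited RPKM, the WT liver medians ran from 32791 for Alb over 6696 for Serpina3k, 4696 for Ahsg, 4543 for Ttr, 3437 for Gc, 3274 for Serpina1b, 2922 for Hp and 2453 for Hpx to 460 for Pigr. The WT ranges of Ahsg (4092 to 5808) and Ttr (4300 to 5417) overlapped, also with Serpina3k, as did those of Gc, Serpina1b, Hp and Hpx, so the order holds for Alb at the top and Pigr at the bottom and not for these neighbours. Relative to its level, Serpina3k was the most variable of the 9 between WT livers, with 6712 to 14831 CPM, and Gc varied least, with 5881 to 6524 CPM.

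**Figure D1:**
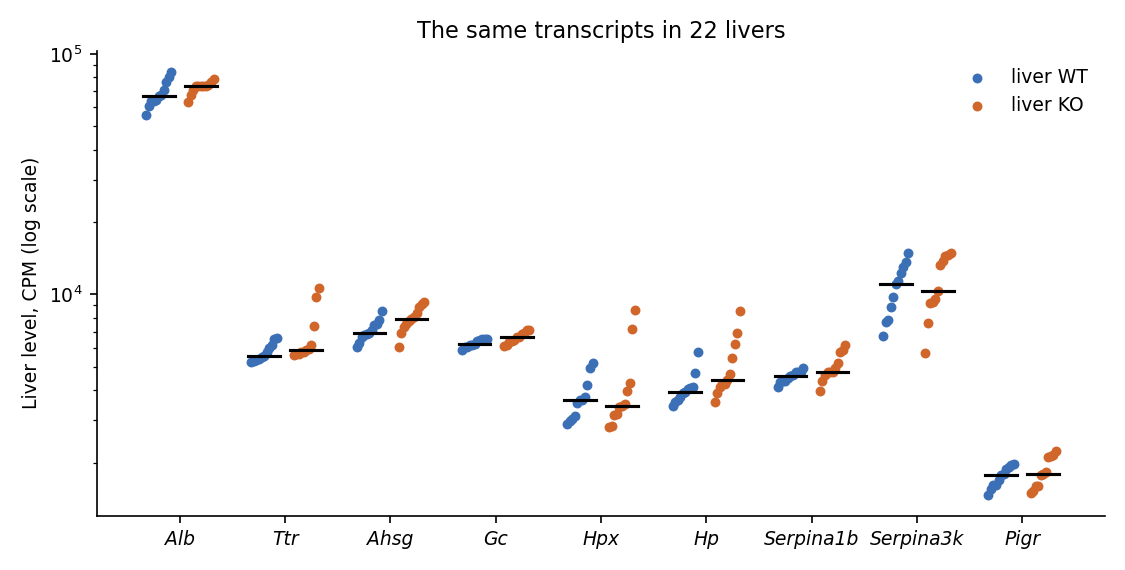
Level of the 9 transcripts in the 11 WT and the 11 KO livers, in CPM on a log scale, with 1 point per liver and a bar at the group median. Alb lies above the other 8 in every liver. The highest value of each of these 8 lies in a KO liver, and that of Alb lies in a WT liver.

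None of the 9 transcripts passed the test across genes in liver (edgeR quasi-likelihood, 13005 genes tested, of which 3 or 0.0231% were called). All 9 had a positive KO against WT fold change, where 6363 of the 13005 genes had one. The largest was Hp, at 3924 CPM (median, range 3450 to 5776) in WT and 4391 CPM (3567 to 8548) in KO livers (log2 fold change 0.39, SE 0.14, adjusted p = 0.38), followed by Ttr (0.30, SE 0.12, adjusted p = 0.38). Unadjusted p was under 0.05 for 5 of the 9, where 12.9% of all genes had such a value. For each liver, the deviation of log2 CPM from the mean of the gene over all livers was fitted against log2 gene length. In 5 of the 11 KO livers (mice 532, 583, 587, 602 and 611), this slope was below that of every WT liver. Mouse 587 was below by little (0.0395, compared with 0.0410 in WT mouse 586), while mice 532, 583, 602 and 611 had slopes from -0.561 to -0.0816. Without these 5 libraries, the fold changes were 0.19 for Hp, 0.022 for Ttr and -0.097 for Serpina3k, each with an adjusted p of 0.99987 (edgeR). The part of transcript length in these differences was not tested further.

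In the muscle libraries, 8 of the 9 transcripts were present at traces, and Hp was not. Pooled over the 22 muscle libraries, Alb stood at 22.6 ppm of its liver level (891 reads, exact 95% counting interval 21.2 to 24.2), Ttr at 24.3 ppm (79 reads), Serpina1b at 20.9 ppm (56 reads), Pigr at 17.3 ppm (18 reads), Gc at 16.9 ppm (62 reads), Ahsg at 16.5 ppm (67 reads), Serpina3k at 15.5 ppm (101 reads) and Hpx at 49.3 ppm (105 reads). The 8 shares thus fell between 15.5 and 49.3 ppm, although their liver levels differ by more than an order of magnitude. The intervals of Ttr (19.2 to 30.3), Serpina1b (15.8 to 27.1) and Pigr (10.3 to 27.4) held the value of Alb, while those of Ahsg (12.8 to 20.9), Gc (12.99 to 21.7) and Serpina3k (12.6 to 18.9) lay below it and that of Hpx (40.3 to 59.7) above it. Hp, in contrast, was counted 69338 times and stood at 30082 ppm (3.01% of the liver level). The reads carry no molecular identifiers, so these intervals and the limits below cover counting error only, and in bulk tissue fewer cells of a type and less RNA per cell cannot be told apart.

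**Figure D2:**
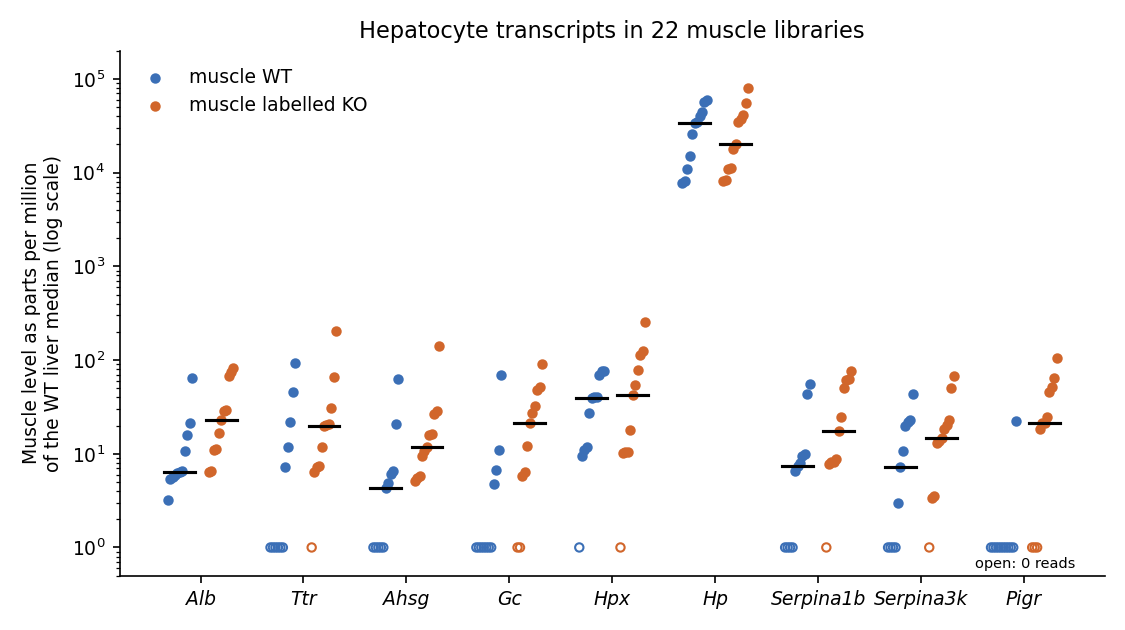
Share of the WT liver median (ppm, log scale) for the 9 transcripts in the 11 WT muscle libraries and the 11 labelled KO, with 1 point per library and a bar at the group median where it is above 0. Open points mark libraries with 0 reads, drawn at 1 ppm. Hp lies at 7707 ppm or more in all 22 libraries, and the other 8 lie at 255 ppm or less.

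Alb was the only one of the 8 trace transcripts with a read in every muscle library. Its counts in WT muscle ran from 5 over a median of 13 to 109, and in muscle labelled KO from 11 over 40 to 158. As a share of liver this was 3.20 to 64.5 ppm (median 6.40) in WT muscle and 6.40 to 82.8 ppm (median 22.7) in muscle labelled KO, with means of 13.8 ± 17.7 and 32.4 ± 28.6 ppm (SD, n = 11 each). The SD was close to or above the mean, the groups overlapped over most of their range, and 4 libraries stood above the rest: WT mouse 616 at 64.5 ppm and, among those labelled KO, mice 611 at 67.0, 532 at 75.0 and 597 at 82.8 ppm. Without mouse 616, the WT mean was 8.71 ppm.

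The other carriers were read sparsely. Ttr had 0 reads in 6 WT libraries and at most 13, and 0 to 26 reads (median 3) in those labelled KO. Gc had 0 reads in 7 WT libraries and at most 11, and 0 to 13 reads (median 4) in those labelled KO. Ahsg had 0 to 11 reads (median 1) in WT muscle and 1 to 22 reads (median 2) in muscle labelled KO. For all 3 carriers the WT maximum was in mouse 616, and that library lay within the range of the libraries labelled KO. A count of 0 allows up to 3 reads, which here is 15.4 to 24.96 ppm of the liver level for Ttr, 13.7 to 22.2 ppm for Gc and 12.3 to 19.97 ppm for Ahsg, so a library at 0 may still hold a share like that of Alb.

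Of the protease inhibitors, Serpina1b had 0 to 6 reads (median 1) in WT muscle and 0 to 10 reads (median 2) in muscle labelled KO, and Serpina3k had 0 to 12 (median 2) and 0 to 17 reads (median 5). Hpx had 0 to 7 reads in WT muscle and 0 to 21 reads in muscle labelled KO, with a median of 4 in each. Hpx was also the transcript with the smallest difference between the medians as a share of liver (39.7 and 41.9 ppm). Pigr, the least abundant of the 9 in liver, had 1 read in the 11 WT libraries, in mouse 616, and 0 to 5 reads (17 in sum) in those labelled KO, where a count of 0 allows 48.1 to 78.1 ppm per library. In WT muscle, Pigr was thus not detectable at this depth beyond 1 read (pooled share 1.93 ppm, interval 0.0489 to 10.8), while in muscle labelled KO the pooled share was 32.6 ppm (18.99 to 52.2).

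The shares of the trace transcripts followed each other from library to library. The 7 trace transcripts other than Alb, summed, stood at 59.9 ppm in the library of WT mouse 616, in which Alb stood at 64.5 ppm, and at 2.16 ppm in that of WT mouse 536, in which Alb was lowest (3.20 ppm). In the libraries labelled KO, the sum was 120 ppm in mouse 597, 55.7 ppm in mouse 532 and 41.5 ppm in mouse 611. The sum of the 7 fell within the 95% counting interval of Alb in 17 of the 22 libraries, and its ratio to Alb had a median of 0.834 (0.324 to 1.69). All 9 transcripts had a read in 6 of the 11 libraries labelled KO and in 1 of the 11 WT libraries (mouse 616).

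Pearson's r of log2 CPM between Alb and another transcript, over the 22 muscle libraries, was 0.86 for Gc, 0.85 for Ttr, 0.81 for Ahsg, 0.76 for Serpina3k, 0.75 for Serpina1b and 0.64 for Hpx and Pigr. Spearman's rho was between 0.53 (Hpx) and 0.81 (Ttr). As counts of the same libraries chose the set, these values are given as a description and without a test. Within the libraries labelled KO, r was between 0.50 (Pigr) and 0.85 (Gc), and within WT muscle it was between 0.42 (Hpx) and 0.91 (Ttr). The WT values rested on few libraries: with the 2 most extreme libraries for the transcript set against Alb left out, r was 0.59 for Ttr, 0.29 for Ahsg, 0.07 for Serpina3k and -0.31 for Serpina1b. For Hp, r with Alb was 0.30 over all muscle libraries (rho 0.26).

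For context, 56 further hepatocyte genes were scaled in the same way. Of 31 other secreted hepatocyte proteins, 20 stood under 100 ppm, among them Apoa1, the main protein of high-density lipoprotein (21.7 ppm), and Fga, a chain of fibrinogen and 1 of the 11 genes of the list with a median of 0 over the libraries (14.5 ppm pooled). In 6 the share was over 1000 ppm (Vtn, Rbp4, C3, Trf, Orm1 and Cp), with complement C3 having the highest median over the libraries (12245 ppm pooled). Of 25 hepatocyte enzymes, 20 stood under 100 ppm, among them Cps1, the first enzyme of the urea cycle, 1 of 11 enzymes with a median of 0 over the libraries (10.6 ppm pooled, 18 reads). Adh1, alcohol dehydrogenase, had the highest median over the libraries (9572 ppm pooled), and Pck1 was also over 1000 ppm. The limits of 100 and 1000 ppm were set after these values were seen. The median over the 8 trace transcripts was 19.1 ppm, compared with 23.7 ppm for the 20 secreted proteins and 26.2 ppm for the 20 enzymes under 100 ppm. The limit lowers these medians and brings them closer. Over all genes of each list, they were 20.9 ppm for the 9 members, 32.3 ppm for the 31 secreted proteins and 29.1 ppm for the 25 enzymes.

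The 40 further genes under 100 ppm, summed for each library, were set beside Alb. They were kept for their own low pooled share in these same libraries. A level near that of Alb therefore follows in part from the choice, and the sum is no independent reading. It was 59.98 ppm in WT mouse 616 and 57.8, 78.7 and 132 ppm in mice 611, 532 and 597 labelled KO, so the 4 libraries highest for Alb were the 4 highest here. In the remaining 18 libraries, it did not exceed 30.7 ppm. Its ratio to Alb had a median of 1.05 (0.392 to 1.89), and it fell within the counting interval of Alb in 17 of the 22 libraries.

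**Figure D3:**
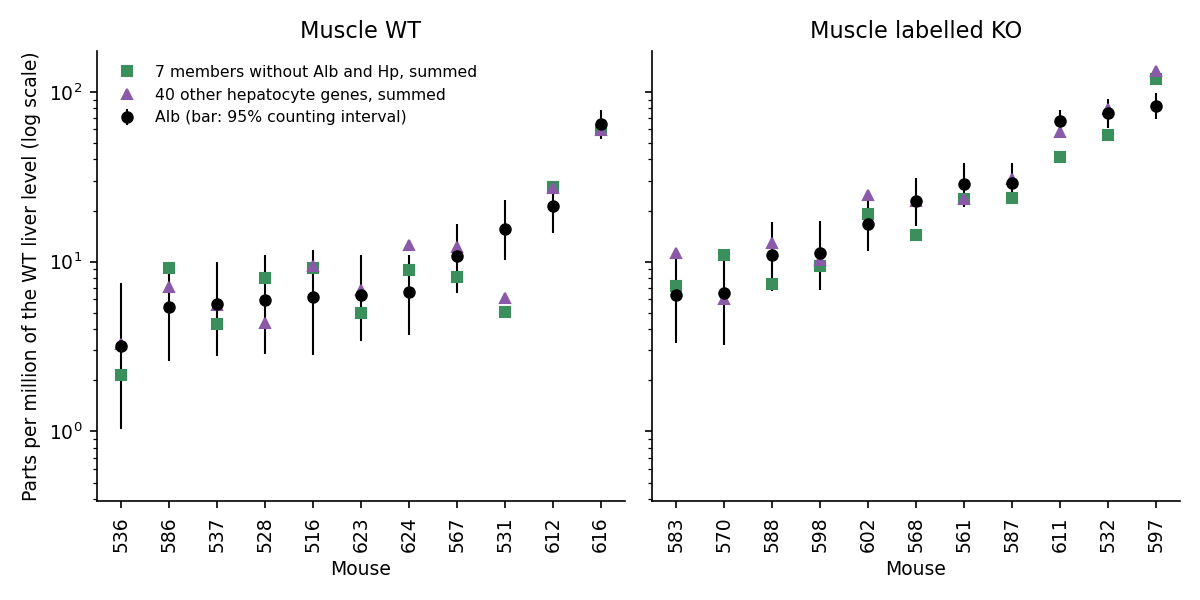
Share of the WT liver level (ppm, log scale) in each muscle library, by mouse and ordered by Alb, for Alb with its 95% counting interval, for the 7 other trace transcripts summed and for the 40 further hepatocyte genes summed. The 40 genes were kept for a pooled share under 100 ppm in these libraries. The readings follow each other, and WT mouse 616 and mice 611, 532 and 597 labelled KO stand above the remaining 18 libraries.

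With respect to genotype label, 8 of the 9 transcripts had a higher pooled share in muscle labelled KO than in WT muscle. The pooled share of Alb was 31.9 ppm (29.4 to 34.4) in the libraries labelled KO and 13.4 ppm (11.8 to 15.1) in WT, and that of Gc was 25.6 and 8.23 ppm. Of the 15 WT reads of Gc, 11 were in mouse 616, and without this library the WT share was 2.40 ppm for Gc and 8.54 ppm for Alb. Hpx (62.7 and 35.8 ppm) and Serpina3k (19.6 and 11.4 ppm) had the smallest ratios of the 8. The median ratio of the 8 was 2.43, and it was 3.91 without WT mouse 616 and 1.77 without mouse 597 labelled KO, with all 8 higher in the label KO whichever of the 22 libraries was left out. Of the other hepatocyte genes, those over 100 ppm included, 30 of the 31 secreted proteins and 22 of the 25 enzymes had a higher pooled share in muscle labelled KO. For comparison, 55.8% of all genes had a positive fold change in the muscle fit with no filter (below), which is another measure than the pooled share. The libraries and not the reads are the replicates here, so these counts are a description.

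**Figure D4:**
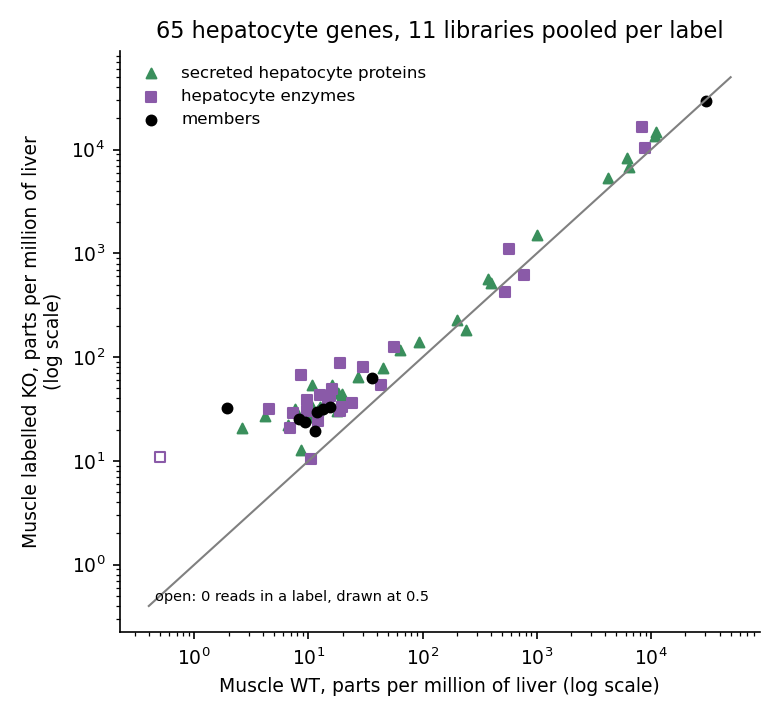
Pooled share of the liver level (ppm, log scales) in the 11 muscle libraries labelled KO against the 11 WT muscle libraries for 65 hepatocyte genes, with the line of equal shares. The 8 trace transcripts lie above the line, and Hp lies on it, at 30631 ppm in WT and 29537 ppm in labelled KO.

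None of these differences passed the test across genes. In muscle, edgeR tested 13266 genes and called 1 (0.00754%). This was Slc16a11, which lies next to Slc16a13 on the same chromosome and was higher in muscle labelled KO (log2 fold change 2.03, adjusted p = 0.013). Only Alb and Hp of the 9 passed the filter on low counts. For Alb, the log2 fold change of muscle labelled KO against WT was 1.21 (SE 0.51, unadjusted p = 0.027, adjusted p = 0.52), and it stayed between 0.97, without mouse 597 labelled KO, and 1.87, without WT mouse 616, when each library was left out in turn (adjusted p 0.41 to 0.76). An unadjusted p under 0.05 was found for 8.58% of the genes tested. With no filter, 24232 genes were tested and none was called by edgeR (0%), with 3016 genes at an unadjusted p under 0.05. Of the members, 8 of the 9 fold changes were positive (Hp -0.080, Hpx 0.78, Serpina3k 0.78, Ttr 1.10, Serpina1b 1.16, Alb 1.20, Ahsg 1.29, Gc 1.57 and Pigr 2.89), where 55.8% of all genes were. The value of Pigr (SE 0.70, unadjusted p = 0.00037, adjusted p = 0.19) rests on 1 WT read. Alb and Pigr had an unadjusted p under 0.05 in this direction, that is 2 of 9, compared with 8.51% of all genes.

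Whether the genotype difference was larger in muscle than in liver was tested with an interaction term over all 44 libraries, in which 14739 genes were tested and 1 (0.00678%) was called, Slc16a13 itself. The term was 1.07 for Alb (SE 0.49, adjusted p = 0.29) and -0.48 for Hp (SE 0.45, adjusted p = 0.57), the 2 that also pass the filter in muscle alone. The other 7 entered this fit through their liver counts, and their terms rest on few reads in muscle. They ran from 0.51 for Hpx to 2.75 for Pigr, with 1 read in WT muscle, at adjusted p between 0.20 and 0.63.

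No relation was found between the level of Alb in muscle and that in the liver of the same mouse (r = 0.096, rho = 0.12, permutation p = 0.67, adjusted p = 0.71, n = 22), or the total count of the library (r = -0.15, rho = -0.18, permutation p = 0.52, adjusted p = 0.61). With the 2 most extreme libraries of the other measure left out, r was -0.092 and -0.37. Alb in the 22 livers spanned only 55878 to 84086 CPM, while its share in muscle spanned 3.20 to 82.8 ppm. With so narrow a range in liver, the relation cannot tell where the reads came from, which was not tested. The level of Alb was then set against markers of other cells that a piece of muscle can hold, with adjustment over the 51 relations computed. With 7 adipocyte genes r was 0.35 (rho 0.28, permutation p = 0.11, adjusted p = 0.20), and with 5 red blood cell genes it was 0.38 (rho 0.31, permutation p = 0.080, adjusted p = 0.16). With 6 macrophage and neutrophil genes r was 0.44 (rho 0.41, permutation p = 0.040, adjusted p = 0.089). None of these passed over all 22 libraries, and without the 2 farthest libraries r was 0.10, 0.18 and 0.22. Within WT muscle, Alb and the red blood cell genes had a rho of 0.84 (permutation p = 0.0021, adjusted p = 0.0072, n = 11) but an r of 0.56 (permutation p = 0.081, adjusted p = 0.16), and within muscle labelled KO r was 0.46 and rho 0.37 (adjusted p = 0.25 and 0.36).

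These marker lists were not at zero in muscle. The summed level of the adipocyte genes was 251 to 825 CPM (median 463) in WT muscle and 333 to 1852 CPM (median 484) in muscle labelled KO, with Fabp4, a fatty acid carrier of adipocytes that endothelial cells also make, highest (median 260 CPM over the 22 libraries) and the hormone gene Retn lowest. That of the red blood cell genes, Hbb-bs highest and Alas2 lowest, was 40.7 to 96.0 and 34.7 to 207 CPM. That of the macrophage and neutrophil genes, Lyz2 highest and S100a9 lowest, was 30.9 to 105 and 41.4 to 166 CPM, and that of the endothelial genes, Cdh5 highest and Tek lowest, was 139 to 243 and 135 to 305 CPM. The labelled KO maximum of the red blood cell, the macrophage and neutrophil and the endothelial genes was in each case mouse 611, which is 1 of the 4 libraries highest for Alb and second highest for the adipocyte genes (1727 CPM), and the next library labelled KO had 78.9 CPM of the red blood cell genes. The other 3 libraries highest for Alb had 50.5 to 72.2 CPM of these. The 4 epithelial genes (Krt19 highest and Krt8 lowest by median), which liver also holds (208 to 400 CPM in WT), summed to 0.240 to 0.929 CPM in 10 WT muscle libraries and to 3.25 CPM in that of mouse 616. This library had 69 reads of Krt18 and 5 of Krt8, keratins of simple epithelia and hepatocytes, compared with 4 to 16 and 0 to 1 in the other WT muscle libraries, and its Krt18 stood at 18415 ppm of the liver level. In muscle labelled KO, the epithelial genes summed to 0.301 to 1.02 CPM. Of the 17 reads of Epcam there, 14 were in mouse 602, in which Alb stood at 16.6 ppm. The part of these markers in the Alb values was not tested further. In muscle, 7 genes of the exocrine pancreas summed to at most 2.53 CPM and 5 genes of the kidney tubule (Slc34a1 highest, Umod lowest) to at most 0.230 CPM. Of the pancreas genes, 6 had a median of 0 in muscle, with Prss2 at 0 reads in all libraries. Cela1, the highest, was not near 0, with 2 to 88 reads in the 22 libraries. Its median over these libraries was 0.738 CPM (63883 ppm of the liver level). In WT muscle the median was 0.762 CPM, compared with 0.429 CPM for Alb, and in muscle labelled KO it was 0.599 CPM, compared with 1.52 CPM for Alb. No gene of any of these lists was called between the labels in muscle.

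Among the 13265 other genes that passed the filter on low counts in muscle, which left out 7 of the 9 members, 22 of the 31 secreted proteins and 20 of the 25 enzymes, the 10 with the highest r with Alb over the 22 muscle libraries were Nck1 (0.75), Cdc42 and Rb1 (0.73 each), Rchy1, Fbxo11, Atg12, 1810022K09Rik, Mpp5, Tagap1 and Denr (0.70). Gc, Ttr, Ahsg and Serpina3k, left out by the filter, had a higher r (above). The median level of the 10 in muscle, in CPM, was between 0.762 and 3.25 times that in WT liver. For comparison, the median r of all genes with Alb was 0.20. These r share the library totals as a denominator and are given as a description.

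Hp was the exception among the 9. In WT muscle it was counted 736 to 7991 times (median 3312), which is 0.771 to 6.02% of the WT liver level (median 3.41%), and in muscle labelled KO 878 to 7799 times (median 2077), which is 0.822 to 8.06% (median 2.01%). The groups overlapped over most of their range, and the pooled shares were 3.06% in WT and 2.95% in labelled KO. The log2 fold change was -0.081 (SE 0.41, adjusted p = 0.97, edgeR), with the sign depending on which library was left out (-0.33 to 0.072). The library highest for Hp was that of mouse 561 labelled KO (8.06%), in which Alb stood at 28.5 ppm, while mouse 597 labelled KO, which was highest for Alb, had 3.50%.

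The relations of Hp in this paragraph were not planned, and the counts of Hp in muscle were known when the set was chosen. Their p-values are therefore no independent support. Across the 22 muscle libraries, Hp moved with the 7 adipocyte genes, with r = 0.83 and rho = 0.91 (permutation p = 1e-05 each, the smallest that 100000 resamples can give, adjusted p = 0.00026). The relation held within WT muscle (r = 0.91, rho = 0.90, permutation p = 0.00023 and 0.00044) and within muscle labelled KO (r = 0.83, rho = 0.94, permutation p = 7e-05 and 1e-04), and without the 2 libraries farthest in adipocyte level r was 0.86. Hp also moved with the macrophage and neutrophil genes (r = 0.68, rho = 0.65, permutation p = 0.00047 and 0.0013, adjusted p = 0.0027 and 0.0048), and r was 0.60 without the 2 farthest libraries. With Hp in the liver of the same mouse, Hp in muscle had an r of 0.076 (rho 0.14, permutation p = 0.74, adjusted p = 0.76, n = 22), and of -0.10 without the 2 farthest. Within WT muscle rho was 0.70 (permutation p = 0.021, adjusted p = 0.053, n = 11). With the adipocyte level as a covariate, a fit added after the values were seen, the log2 fold change of Hp between the labels was -0.34 (SE 0.25, adjusted p = 0.66) and that of Alb was 1.14 (SE 0.52, adjusted p = 0.49).

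**Figure D5:**
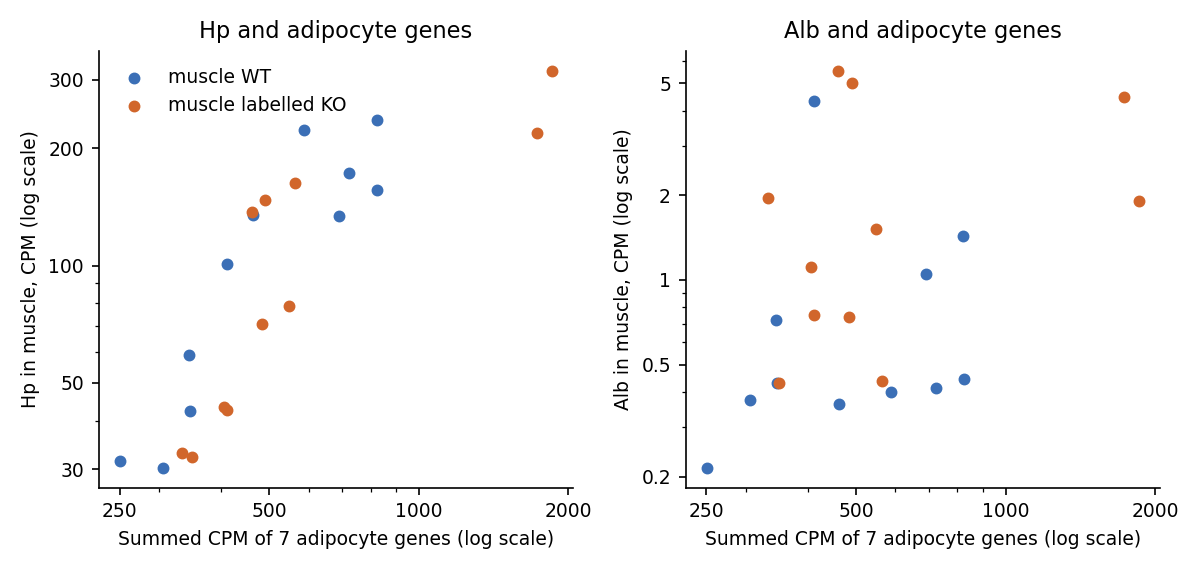
Level of Hp (left) and Alb (right) against the summed level of 7 adipocyte genes in the 22 muscle libraries, all in CPM on log scales, with 1 point per library. Hp lies along a line (r = 0.83), and Alb scatters (r = 0.35).

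The reverse measure, fibre transcripts in the liver libraries, was read on the same scale. Of the 18 fibre genes, 15 stood under 100 ppm of their WT muscle level when pooled over the livers (22.5 to 72.5 ppm, median 43.4), and Mylpf, Eno3 and Neb stood higher. By library, the 15 summed to 13.2 to 350 ppm (median 31.6) in the WT livers and to 1.59 to 126 ppm (median 15.8) in the KO livers. The WT maximum was in mouse 516 (2026 reads), and the next WT liver, mouse 586, stood at 65.4 ppm. The library of mouse 516 thus weighs on the pooled shares. Between Alb in the muscle of a mouse and the fibre genes in its liver, a relation that was not planned, r was -0.17 and rho -0.36 (permutation p = 0.45 and 0.10, adjusted p = 0.57 and 0.19, n = 22), and r was -0.021 without the 2 farthest libraries.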

How the data were processed

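Liver and muscle poly(A) RNA of 22 mice was sequenced as 85-base single-end stranded reads. The authors deposited raw counts of uniquely mapped reads per gene and an RPKM table for 38202 Ensembl genes; the submitters' processing notes name limma, and the aligner, counter and genome build are not given in the sources used here. No deposited column was left unused (0). Symbols were matched through a reference table (36340 genes), and groups came from the labels. No source says which libraries shared a sequencing pool, so pools could not be compared.

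Counts were tested with edgeR 4.0.16 (quasi-likelihood, TMM, filterByExpr, Benjamini-Hochberg, threshold 0.05) in R 4.3.3, first tested on simulated data. The depth was 20150712 to 35218243 counts. Shares used library-size CPM. Counting intervals are exact (95%), and floors are 3 counts. Correlations used log2 CPM (prior count 2) with two-sided permutation p from 100000 resamples (scipy 1.17.1), adjusted over r and rho of the 51 relations together. Alternatives were DESeq2 1.42.0, limma-voom 3.58.1, library-size scaling, other filters, other liver references, the deposited RPKM, a prior count of 0.5 and each library left out.

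Both tissues carry the same animal numbers, so the mouse pairs the libraries; deviations of the same mouse from the group means had a mean correlation of 0.112 (-0.0447 to 0.290), compared with -0.0104 for different mice. None of 220 pairs of libraries within a group was identical. The p-values cover the spread between these mice, whose dissection order was not used here.

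Genes named are the 9 members, Slc16a13, the members of each other list with the highest and lowest muscle share or level, and the 10 genes most correlated with Alb among those kept by filterByExpr in muscle, which leaves out most trace transcripts; any other named gene was chosen after its values were seen. The members and the lists were chosen with earlier results of these data known.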

Additional observations from a re-analysis of the deposited data

How the results depend on the processing

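Of 613 values recomputed under another setting, 595 kept their direction and their side of the threshold or moved by less than the spread between replicates. Of the others, 7 moved further, 9 changed sign, and 2 kept their sign but no longer passed the threshold. The latter 2 are not listed below. The number of genes called in muscle was 1 and became 0 with limma-voom, with no filter and with at least 10 counts in every library. The number called in liver was 3 and became 6 with DESeq2, 1 with at least 10 counts in every library and 1 without the livers of low length slope. With library size only, the interaction called 3 genes in place of 1. None of these settings called any of the 9 transcripts in muscle. With the mouse as replicate block, the interaction term was 1.09 for Alb (adjusted p = 0.33, edgeR), and the block changed no call. The sign of Hp in muscle changed in 6 of the fits that left out 1 library (-0.33 to 0.072), that of Serpina3k in liver without the livers of low length slope (-0.097), that of r between Alb in muscle labelled KO and in the own liver with TMM (-0.064), and that of r between Hp in muscle and in the own liver with TMM (-0.061). The cause of these changes was not tested. Leaving out each library in turn left 1 gene called in muscle and 3 in liver. The depth limits the trace transcripts: Pigr exceeded 3 reads in 2 of 22 muscle libraries and Ttr and Ahsg in 5.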
